A study of Mus musculus with 6 samples.

Results

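Prss35 and Cyp2e1 fibroblasts are cells of the mouse aortic root that carry transcripts of Prss35, which encodes a protease-like protein without known catalytic activity, or of Cyp2e1, a cytochrome P450 that oxidises ethanol and other small molecules. They were chosen by their counts of unique molecular identifiers (UMIs), the tags that mark single captured transcripts. A cell had to hold 1000 or more UMIs of 500 or more genes, and no more than 10% of its UMIs could be mitochondrial. It needed at least 10 Dcn UMIs, fewer than 5 Tyrobp plus Fcer1g, fewer than 2 Pecam1 plus Cdh5, fewer than 10 Chad plus Cytl1 plus Epyc, fewer than 3 Pi16 and fewer than 5 Hsd11b1 plus Gdf10 plus Vegfd. Of the 5285 cells inside these gates in the lineage-negative libraries, 1084 had at least 5 UMIs of Prss35 plus Cyp2e1 and are the members. The other 4201 are called other gated fibroblasts. The 3 lineage-negative libraries held 20134 barcodes and the 6 libraries of the whole series 60200.

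The roots, with the ascending aorta to about its middle, came from male mice aged 24 weeks. Animals of 1 genotype, 4 in each group, were pooled, digested and sorted by tdTomato into the traced smooth muscle lineage and the lineage-negative remainder. The first genotype was the Fbn1 C1041G/+ Marfan model with floxed Klf4, the second Fbn1 C1041G/+ with a wild-type Klf4 allele, and the third their littermates with control Fbn1 and wild-type Klf4. The Cre driver and the floxed exons are not named in the labels, and cells cannot be assigned to animals within a pool. There was 1 library per genotype and fraction, so no difference below has a replicate check, no test was run, and every ratio compares libraries and not conditions. Intervals are exact 95% intervals that cover counting error only.

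Klf4, the gene that was to be deleted in smooth muscle cells, stood at 116 CPM in the lineage-positive library labelled floxed, against 44.6 CPM in Marfan and 30.4 CPM in control lineage-positive cells. In the lineage-negative fraction it reached 358 CPM in floxed-labelled, 268 CPM in Marfan and 280.4 CPM in control cells. It was thus not lower where the label says floxed. A 3' assay need not cover the deleted part, so this is no check of the label, and that genotype is called floxed-labelled here. The lineage-negative libraries held 70598538 UMIs in the floxed-labelled, 81181913 in the Marfan and 47750360 in the control mice. Any pair of libraries shared 9 to 46 barcodes, of which 0 to 4 were members, and 0 were members where both libraries of the pair were lineage-negative.

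Fibroblasts of the aortic root sit in the adventitia, in the annulus and in the leaflets of the valve. They deposit the collagens, proteoglycans and elastic fibres that carry the load of the wall. Versican, the product of Vcan, is a large proteoglycan that binds hyaluronan and is prominent in heart valves and in the outflow tract. Wnt and BMP ligands pattern the valve mesenchyme, and secreted antagonists of either pathway are common products of fibroblasts.

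The gates required Dcn and limited Tyrobp, Fcer1g, Pecam1 and Cdh5, so the label was checked with markers that they did not use. The 7 fibroblast markers other than Dcn, among them Lum, Col1a1 and Pdgfra, summed to 9232 CPM in floxed-labelled, 10283 CPM in Marfan and 10937 CPM in control members, against 11961, 11780 and 14187 CPM in the other gated fibroblasts of the same libraries. The 3 endothelial markers outside the gates summed to 1.57 to 2.72 CPM in members, against 7.99 to 13.3 CPM in other gated fibroblasts. The 5 such macrophage markers summed to 69.2 to 109 CPM, against 87.7 to 117 CPM. Mesothelial markers summed to 0.979 CPM in floxed-labelled and 1.30 CPM in Marfan members but to 38.8 CPM in control members. Of these 5 markers 2 were at 0 in floxed-labelled and in Marfan members and 0 were at 0 in control members. They reached 161 to 366 CPM in other gated fibroblasts, and their part in the results below was not tested. Smooth muscle markers summed to 488 to 827 CPM in members and to 1247.5 to 1882 CPM in other gated fibroblasts. Pericyte, Schwann cell and valve interstitial or chondrocyte markers went the other way. The 7 valve interstitial or chondrocyte markers summed to 2740, 3233 and 2598 CPM in floxed-labelled, Marfan and control members. In other gated fibroblasts they summed to 2201, 2922 and 2146.5 CPM. The gates limited Chad, Cytl1 and Epyc of this list, and Wif1, described below, belongs to it. The 5 pericyte markers summed to 540, 458 and 655 CPM in floxed-labelled, Marfan and control members, against 401, 261 and 364 CPM in other gated fibroblasts. In members of each library 2 of them were under 5 CPM, 1 of these at 0, and Rgs5, given below, held most of the sum. The 5 Schwann cell markers summed to 279, 246 and 214 CPM, against 208, 119 and 141 CPM. Of these 5, 4 were under 5 CPM in members of each library. The part of any of these lists in the results below was not tested. Vcan, the third gene that marks these cells, was at 1788 CPM in floxed-labelled, 1526 CPM in Marfan and 1621 CPM in control members, and at 976, 572 and 699 CPM in other gated fibroblasts of those libraries. Members thus exceeded other gated fibroblasts for Vcan in every library. The tdTomato reporter transcript, TDT, was at 1.82 CPM in floxed-labelled, 5.22 CPM in Marfan and 5.44 CPM in control members, against 226, 413 and 343 CPM in the lineage-positive libraries.

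The rule set the levels of its own 2 genes, which are given as a description. Prss35 (ENSMUSG00000033491.13, chr9:86743649-86758443, plus strand, mm10) was at 413 CPM in floxed-labelled, 382 CPM in Marfan and 362 CPM in control members. Cyp2e1 (ENSMUSG00000025479.9, chr7:140763739-140774987, plus strand, mm10) was at 407 CPM in floxed-labelled, 371 CPM in Marfan and 545 CPM in control members. The median member carried 9, 8 and 10 UMIs of the pair in floxed-labelled, Marfan and control mice, and the highest carried 134, 75 and 61. Members held 54.0% of all Prss35 UMIs of the floxed-labelled library, 48.5% in Marfan and 62.6% in control, and 56.4%, 44.7% and 56.0% of its Cyp2e1 UMIs. The rest lay outside the gates or under the threshold; the Pi16 gate kept out 120 floxed-labelled, 90 Marfan and 43 control fibroblasts that reached 5 UMIs. In macrophages, taken as cells that should lack both genes, a Prss35 UMI was found in 1.74%, 0.404% and 2.58% of cells at median depths of 9610, 10099 and 11497 UMIs. Among members it was found in 75.3%, 73.1% and 68.2% of cells at 13499, 12692 and 13264 UMIs. For Cyp2e1 the shares were 1.74%, 1.37% and 1.72% in macrophages and 77.9%, 74.6% and 86.0% in members. Hsd11b1 fibroblasts had a Prss35 UMI in 2.82%, 1.94% and 3.42% of cells and a Cyp2e1 UMI in 4.89%, 3.89% and 7.41%, so members stood far above both populations, as the rule requires.

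The UMIs of the pair ran on without a gap across the threshold. In the floxed-labelled library 101 gated cells had 4 UMIs and 81 had 5, in Marfan 53 had 4 and 59 had 5, and in control 53 had 4 and 37 had 5. Cells with 3 to 4 UMIs carried 1591 CPM of Vcan in floxed-labelled, 1290.2 CPM in Marfan and 1286 CPM in control mice, against 1415, 1216 and 1375 CPM in cells with 5 to 6. Wif1 stood at 856, 1046 and 1259 CPM just outside and at 1039, 1076 and 1207 CPM just inside. Cells without a UMI of the pair carried 533, 357 and 346 CPM of Vcan. Mal stood at 46.2, 52.4 and 66.6 CPM just outside and at 52.0, 50.3 and 92.4 CPM just inside, Ogn at 65.7, 83.8 and 95.8 CPM outside and at 50.8, 38.2 and 57.1 CPM inside, and Fn1 at 52.9, 35.8 and 19.0 CPM outside and at 20.8, 11.4 and 20.5 CPM inside. Vcan and Wif1 were thus at similar levels on either side of the threshold, while Ogn was lower just inside it in each library. The threshold reads depth: members had more UMIs per cell than other gated fibroblasts, whose medians were 9336 in floxed-labelled, 9041.5 in Marfan and 8658.5 in control mice.

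**Figure D1:**
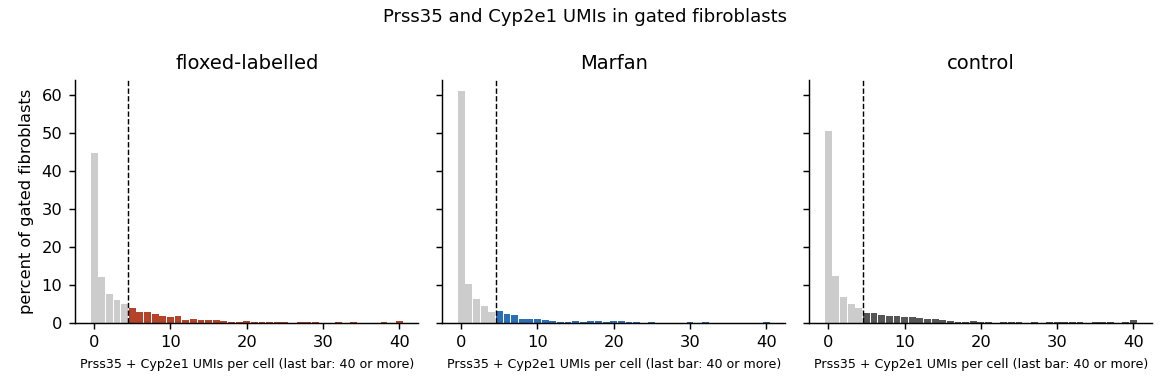
Histograms of the summed Prss35 and Cyp2e1 UMIs per gated fibroblast in each lineage-negative library, as a percent of gated fibroblasts, with the last bar holding cells with 40 or more. The dashed line marks the threshold of 5 UMIs, and coloured bars right of it are the members. The bars run on across the line without a gap. The first bar right of it is lower than the last bar left of it in floxed-labelled and control, and higher in Marfan.

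Members made up 24.8% (95% interval 23.0 to 26.8) of gated fibroblasts in the floxed-labelled library, 15.1% (13.5 to 16.8) in Marfan and 21.5% (19.3 to 23.7) in control. That is 506 of 2039, 279 of 1853 and 299 of 1393 cells. Thinning each cell to 5000 UMIs with a threshold of 3, which left out 314, 318 and 275 shallower cells, gave 21.0% (19.1 to 23.0), 13.6% (11.9 to 15.4) and 21.0% (18.7 to 23.5). The Marfan share was the lowest of the 3 at both depths, and the intervals of floxed-labelled and control overlapped at both. As a share of all barcodes that passed the limits on UMIs, genes and mitochondrial reads, members were 8.08% (7.42 to 8.78), 3.93% (3.49 to 4.40) and 6.63% (5.92 to 7.40). The sort and the gates bear on each of these shares, and a lower share can come from more of the other cells. In the lineage-positive libraries 2 of 369 gated cells passed the rule in floxed-labelled, 0 of 352 in Marfan, where 3 cells, the limit taken for a count of 0, would be 0.852%, and 1 of 384 in control mice.

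Compared with other gated fibroblasts, members had higher levels of the Wnt genes Wif1 and Wnt16, of the class II gene Cd74 and of the link protein gene Hapln1, and lower levels of 4 small leucine-rich proteoglycans and of 3 markers of Lepr fibroblasts. Of 5839 genes compared, 22 (0.377%) were at least 2-fold higher in all 3 libraries and 99 (1.7%) at least 2-fold lower. Genes compared had at least 20 CPM and a UMI in at least 10% of cells in the higher group of every library. The median log2 ratio over all compared genes was 0.01. The genes that chose the cells were left out, but any gene that varies with them, or with the cell depth that the threshold reads, was not independent of the choice, so these counts describe the members.

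Mal, a raft-associated membrane protein, led the higher genes with 71.6 CPM in floxed-labelled, 86.1 CPM in Marfan and 109 CPM in control members, against 21.8, 17.9 and 28.0 CPM in other gated fibroblasts. Its log2 ratio was 1.71 to 2.26 over the libraries, and members were the higher population in each. Coch, which encodes the matrix protein cochlin, was at 184 CPM in floxed-labelled, 236 CPM in Marfan and 316 CPM in control members, against 58.7, 49.2 and 96.2 CPM. Tmem132c (median log2 ratio 1.71 over the 3 libraries), the secreted phospholipase Pla2g5 (1.61), the metalloprotease Adamts19 (1.42), the neural adhesion protein Opcml (1.33), Stxbp6 (1.23) and Ociad2 (1.18) were also among the 20 highest. Ptn, the secreted growth factor pleiotrophin, was the most abundant of them at 1618 CPM in floxed-labelled, 1217 CPM in Marfan and 1979 CPM in control members, against 744, 446 and 872 CPM in other gated fibroblasts.

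Several Wnt genes were higher in members. Wif1, a secreted protein that binds Wnt ligands, was at 1146 CPM in floxed-labelled, 1253 CPM in Marfan and 1289 CPM in control members, against 466, 364 and 559 CPM in other gated fibroblasts. The ligand Wnt16 was at 147 CPM in floxed-labelled, 129.9 CPM in Marfan and 219.6 CPM in control members, against 58.1, 42.1 and 84.4 CPM. Lef1, a transcription factor through which Wnt signals act, had 37.2 CPM in floxed-labelled, 29.7 CPM in Marfan and 29.7 CPM in control members, against 15.3, 9.43 and 13.1 CPM. All 3 were at least 2-fold higher in members of every library. Of a list of 34 Wnt pathway genes, which does not hold Lef1, 16 were compared. Of these 3 were past 2-fold higher (Wnt16, Wif1 and the antagonist Apcdd1) and 1 lower, the antagonist Sfrp2 at a median log2 ratio of -1.62. The list's median was 0.45. Axin2, a target of Wnt signals that also damps them, was at 44.5 CPM in floxed-labelled, 48.5 CPM in Marfan and 53.7 CPM in control members, against 29.1, 23.1 and 29.3 CPM in other gated fibroblasts, and did not reach 2-fold in every library. Rspo3, which amplifies Wnt signals, was at 308 CPM in floxed-labelled, 320.3 CPM in Marfan and 393 CPM in control members, against 151, 161 and 180.0 CPM.

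Of 29 BMP pathway genes, 15 were compared, with 2 higher and 3 lower. The ligand Bmp5 was at 43.8 CPM in floxed-labelled, 42.3 CPM in Marfan and 50.7 CPM in control members, against 21.8, 9.0 and 16.9 CPM in other gated fibroblasts, and Id4, of a family of inhibitory helix-loop-helix proteins, was at 387 CPM in floxed-labelled, 246 CPM in Marfan and 324 CPM in control members, against 163, 88.7 and 97.8 CPM. The antagonists Chrdl1 (-2.79) and Nbl1 (-1.47) and the BMP target Id1 (-1.16) were lower. Among 80 transcription factors of the heart, outflow tract and mesenchyme, 34 were compared. Of these 0 were 2-fold higher and 5 were lower, including Nr2f2 (-2.48) and Tcf21 (-2.10), while Tbx20, a cardiac T-box factor, was abundant in members at 725 CPM in floxed-labelled, 767 CPM in Marfan and 606 CPM in control members and in other gated fibroblasts at 631, 436 and 516 CPM.

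Of the 5 class II genes among the 20 highest, Cd74, the invariant chain that guides class II molecules, was at 889 CPM in floxed-labelled, 612 CPM in Marfan and 795 CPM in control members, against 364, 234 and 343 CPM in other gated fibroblasts. H2-Aa was at 453 CPM in floxed-labelled, 333 CPM in Marfan and 418 CPM in control members, against 184, 119.8 and 168 CPM, and H2-Ab1, H2-Eb1 and H2-DMa had median log2 ratios of 1.31, 1.32 and 1.31. The macrophage gene C1qa, beside these, was at 18.3, 31.0 and 12.6 CPM in members and at 19.4, 28.8 and 17.7 CPM in other gated fibroblasts. The part of macrophage RNA in the class II values was not tested. A Cd74 UMI was found in 69.4%, 71.0% and 68.2% of floxed-labelled, Marfan and control members, and in 54.5%, 50.2% and 54.4% after thinning to 5000 UMIs. In other gated fibroblasts the thinned shares were 30.0%, 33.1% and 30.3%, and in Hsd11b1 fibroblasts 18.3%, 24.2% and 17.0%.

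**Figure D2:**
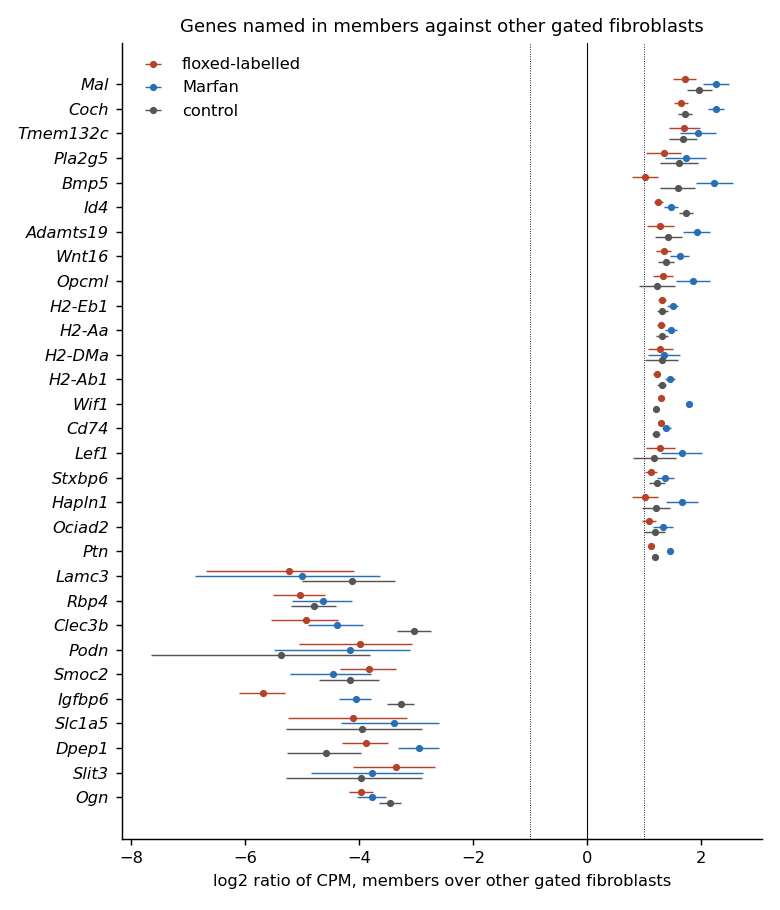
Log2 ratios of CPM, members over other gated fibroblasts, for the 20 highest and 10 lowest genes by the median of the 3 libraries; each point is a library and bars are exact 95% intervals for counting error. The higher genes lie between 1 and 2.3 in every library, and the lower genes, from Lamc3 to Ogn, lie below -2.9.

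The matrix of the members differed in its proteoglycans. Vcan is described above; Hapln1, the link protein that fixes versican-type proteoglycans to hyaluronan, was at 43.3 CPM in floxed-labelled, 49.0 CPM in Marfan and 65.0 CPM in control members, against 21.4, 15.4 and 28.3 CPM in other gated fibroblasts. Of 24 genes of versican, hyaluronan and their partners, 9 were compared, with Hapln1 higher and the versican-cleaving protease Adamts5 lower at 20.7 CPM in floxed-labelled, 25.6 CPM in Marfan and 21.0 CPM in control members, against 81.1, 195 and 125 CPM. Of 12 small leucine-rich proteoglycans 8 were compared and 4 were lower: Podn (-4.17), Ogn (-3.78), Aspn (-3.42) and Omd (-3.30). Osteoglycin, the Ogn product, a regulator of collagen fibrils, was at 28.1 CPM in floxed-labelled, 34.4 CPM in Marfan and 57.9 CPM in control members, against 438, 471 and 633 CPM. Of these 8 genes 0 were higher, and its median was -2.42. Of 22 genes of elastic fibres and microfibrils 18 were compared and 3 were lower, with elastin (Eln) at 26.4 CPM in floxed-labelled, 28.2 CPM in Marfan and 31.2 CPM in control members, against 109.7, 91.4 and 139 CPM, the crosslinking enzyme Lox (-2.85) and Ltbp2 (-1.41). Fbn1, which carries the Marfan allele, was at 181 CPM in floxed-labelled, 153 CPM in Marfan and 119 CPM in control members, against 197, 196 and 180.3 CPM.

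Collagen levels differed less. Of 20 collagens 13 were compared and, of these, only Col14a1 passed 2-fold in all libraries, at -2.10. Col1a1 was at 639.8 CPM in floxed-labelled, 639 CPM in Marfan and 472 CPM in control members, against 866, 1054 and 737 CPM, and Col3a1 at 706 CPM in floxed-labelled, 706 CPM in Marfan and 477 CPM in control members, against 1171, 1908 and 1137 CPM. Of 28 matricellular genes 19 were compared and 7 were lower, led by the calcium-binding Smoc2 (-4.15) and fibronectin (Fn1, -2.44), while periostin (Postn) was at 1779 CPM in floxed-labelled, 1598 CPM in Marfan and 1348 CPM in control members, against 1381, 689.9 and 846 CPM. The remaining lowest genes were the laminin chain Lamc3 (-5.0), the retinol carrier Rbp4 (-4.79), Clec3b, which encodes tetranectin (-4.39), Igfbp6 (-4.06), the glutamine transporter Slc1a5 (-3.95), the dipeptidase Dpep1 (-3.88) and the guidance cue Slit3 (-3.78). All 3 markers of Lepr fibroblasts were lower: Lepr (-3.05), Fbln7 (-2.77) and Tcf21 (-2.10). The serine protease Prss23 was at 7.83 CPM in floxed-labelled, 4.17 CPM in Marfan and 11.4 CPM in control members, against 49.1, 68.0 and 50.9 CPM. Mgp, an inhibitor of calcification, was abundant in both, at 14423 CPM in floxed-labelled, 13780.0 CPM in Marfan and 14881 CPM in control members and at 18542, 18307 and 19371 CPM in other gated fibroblasts.

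Cells that carry Pi16, a marker of adventitial fibroblasts, were closer to the members than cells gated by Hsd11b1, Gdf10 and Vegfd, as far as counts past 2-fold describe it. Against 1770 Pi16 fibroblasts, 5846 genes were compared, of which 49 (0.838%) were higher in all 3 libraries and 148 (2.53%) lower. Against 2567 Hsd11b1 fibroblasts, 6010 were compared, of which 271 (4.51%) were higher and 378 (6.29%) lower. The 3 comparisons share the members, so their ratios are set side by side and no overlap is computed. The Pi16 and Hsd11b1 gates are not exclusive of the counted pair. In floxed-labelled, Marfan and control mice, 120, 90 and 43 cells with at least 5 UMIs of it were gated out by Pi16. The Pi16 fibroblasts there numbered 526, 716 and 528. By Hsd11b1, Gdf10 and Vegfd 12, 7 and 14 such cells were gated out, where Hsd11b1 fibroblasts numbered 1063, 978 and 526. The part of these cells in the counts past 2-fold was not tested.

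Among the highest genes against Pi16 fibroblasts was Rgs5, a regulator of G-protein signals known as a pericyte marker, at 345 CPM in floxed-labelled, 302 CPM in Marfan and 407 CPM in control members, against 80.3, 45.5 and 44.2 CPM in Pi16 fibroblasts. The summed pericyte markers were 540 CPM in floxed-labelled, 458 CPM in Marfan and 655 CPM in control members, against 210.2, 148 and 240.2 CPM in Pi16 fibroblasts. In Hsd11b1 fibroblasts they were 656, 560 and 593 CPM, above the members in floxed-labelled and Marfan and below them in control. The part of these markers in other results was not tested. Clca3a2 (2.51), Tmem132c (2.29), the sodium pump subunit Atp1b1 (2.25), Wif1 (2.25), the neurotrophin receptor Ntrk2 (2.21) and Pdzrn4 (2.19), each with its median log2 ratio, were also among the highest. The lowest were the ferritin receptor Scara5 at 1.26 CPM in floxed-labelled, 0.782 CPM in Marfan and 0.247 CPM in control members, against 79.0, 94.4 and 116 CPM, Clec3b (-6.67), the transcription factor Ebf2 (-6.66) and the adhesion receptor Adgrd1 and the microfibril-associated Emilin2, both listed at 0 UMIs in floxed-labelled members, against 40.2 and 39.7 CPM in floxed-labelled Pi16 fibroblasts. Of 22 elastic fibre genes 20 were compared and 8 were lower, Fbn1 among them at -1.56. Vcan was at 1075, 749 and 667 CPM in Pi16 fibroblasts, below the members in every library.

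Against Hsd11b1 fibroblasts, Vcan, Has2 and 8 Wnt genes were higher in members, while other partners of versican were lower. Vcan was at 59.0, 62.1 and 55.1 CPM there, a median log2 ratio of 4.88, and Has2, the synthase of hyaluronan, was at 25.7 CPM in floxed-labelled, 31.3 CPM in Marfan and 34.1 CPM in control members, against 0.847, 2.13 and 0.552 CPM. Of 24 genes of that list 11 were compared, 5 higher and 4, including Adamts5, lower, with a median of 1.65. Of 34 Wnt genes 17 were compared, 8 higher and 2 lower, with a median of 1.24 against 0.08 over all compared genes. Adamts19 was at 45.2 CPM in floxed-labelled, 71.7 CPM in Marfan and 73.7 CPM in control members, against 1.19, 1.07 and 1.10 CPM, Bmp5 at 5.78 and Lef1 at 5.58 on the median log2 scale. Rtn1 (5.51), Mal (5.40), Clca3a2 (5.38), the desmosomal protein desmoplakin (Dsp, 5.28) and Tesc (5.28) completed the 8 highest. Postn was at 129, 79.9 and 80.7 CPM in Hsd11b1 fibroblasts, a median log2 ratio of 4.06. Cdkn2a, a cell-cycle inhibitor, was at 158 CPM in floxed-labelled, 107 CPM in Marfan and 68.5 CPM in control members, against 4.74, 5.86 and 3.31 CPM.

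Lower than in Hsd11b1 fibroblasts were Lamc3 at -8.15, the carboxypeptidase Cpz at -7.61, the angiopoietin Angpt4 at -7.11 and Rbp4 at 5.87 CPM in floxed-labelled, 8.35 CPM in Marfan and 13.4 CPM in control members, against 1100.0, 1045 and 1442 CPM. Of 40 compared transcription factors of the heart and mesenchyme, 9 were higher, among them Gata3 (4.13), the tendon factor Scx (3.99), Meox1 (3.36), Tbx20 (2.37), Sox9 (2.24) and Gata4 (1.81), and 11 were lower, led by Meox2 (-6.63) and Foxd1 (-6.53). Of 18 basement membrane genes 15 were compared, with 0 higher and 8 lower.

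A further population of the same libraries, 2221 cells with at least 10 UMIs of Chad, Cytl1 and Epyc, genes known from cartilage, was set beside the members after its values were seen. Wif1 was at 896, 853 and 862 CPM there and at 1146, 1253 and 1289 CPM in members of the floxed-labelled, Marfan and control libraries. Tbx20 was at 511, 452 and 344 CPM there, and Sox9 at 211, 233 and 190.2 CPM, against 286, 326 and 248 CPM in members. Vcan at 375, 382 and 336 CPM, Wnt16 at 23.9, 14.7 and 23.5 CPM and Cd74 at 108, 87.2 and 75.3 CPM were all lower in these cells than in members of the same library.

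**Figure D3:**
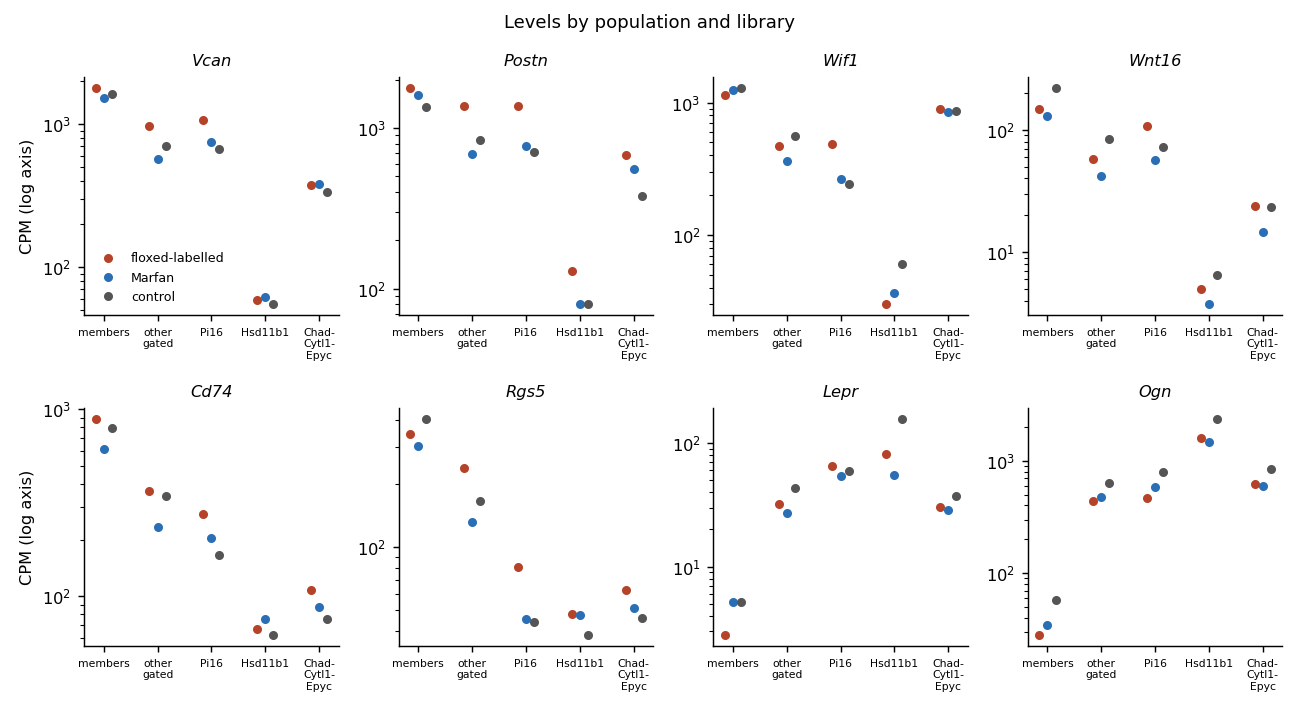
CPM (log axes) of 8 genes in members, other gated fibroblasts, Pi16 fibroblasts, Hsd11b1 fibroblasts and cells with Chad, Cytl1 and Epyc, with 1 point per lineage-negative library. Vcan, Postn, Wnt16, Cd74 and Rgs5 are highest in members of each library, and Lepr and Ogn are lowest there.

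Members were not uniform. Only Prss35 was detected in 112 floxed-labelled, 71 Marfan and 42 control members, only Cyp2e1 in 125, 75 and 95, and both in 269, 133 and 162. Prss35-only cells made up 22.1% (18.6 to 26.0), 25.4% (20.4 to 31.0) and 14% (10.3 to 18.5) of members. A rule on the sum of 2 counts lets in cells high in either, so these shares describe the rule as well as the cells. Prss35-only members were deeper, with medians of 16138, 14910 and 14218 UMIs, against 12706, 11390 and 11630.0 in Cyp2e1-only members. Between the 2 classes 5672 genes were compared, and 72 (1.27%) were at least 2-fold higher in Prss35-only members of all 3 libraries and 91 (1.6%) lower.

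The Prss35-only members carried more of the ligands Areg and Ereg and of 8 genes of myofibroblast activation. Areg, the ligand amphiregulin of the epidermal growth factor receptor, was at 337 CPM in Prss35-only and 19.7 CPM in Cyp2e1-only floxed-labelled members, at 92.8 and 7.64 CPM in Marfan, and at 130 and 1.74 CPM in control. Its relative Ereg (median log2 ratio 4.15), the neuropeptide Npy (3.97), the ligand Wnt11 (3.79), Coch (3.48), Opcml (3.16), Cthrc1 (2.62), the hyaluronan-associated Itih5 (2.62), Col12a1 (2.57) and the cyclin Ccnd1 (2.50) were on the same side. Of 23 genes of myofibroblast activation 17 were compared, of which 8 were higher in Prss35-only members and 0 lower, with a median log2 ratio of 1.17; the higher ones included Postn, Tagln and Meox1. Of 39 other growth factors and receptors 18 were compared, of which Ereg and Bdnf were higher and Angptl7, Pdgfra and Angpt1 lower, with a median of -0.10. Higher in Cyp2e1-only members were the prostaglandin-degrading enzyme Hpgd (-5.80), Igfbp3 (-5.0), Aox3 (-4.44), the protease Adamts15 (-4.36), the lipocalin Apod (-3.60), Fgl2 (-3.56) and Myoc (-3.53). Myoc, which encodes myocilin, was at 51.0 CPM in Prss35-only and 457 CPM in Cyp2e1-only floxed-labelled members, at 22.5 and 261 CPM in Marfan, and at 9.49 and 456 CPM in control.

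**Figure D4:**
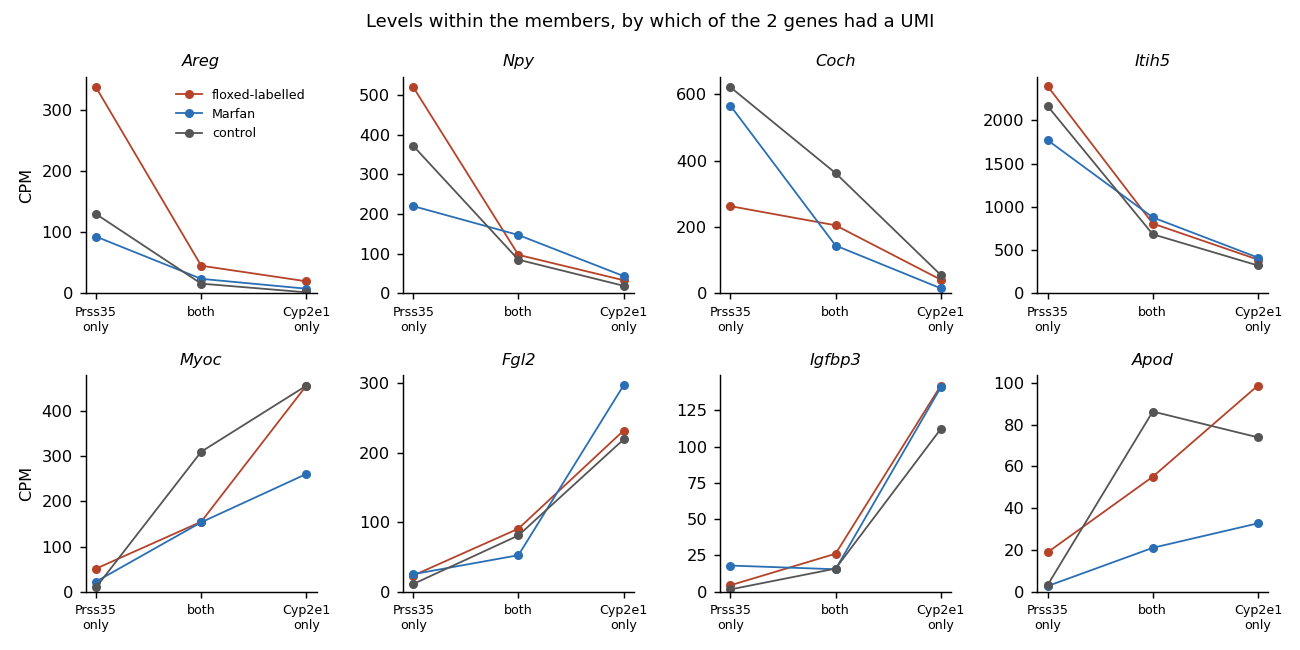
CPM of 8 genes in members with a UMI of Prss35 only, of both genes and of Cyp2e1 only, with 1 line per lineage-negative library. Areg, Npy, Coch and Itih5 are highest where Prss35 alone was found, and Myoc, Fgl2 and Igfbp3 where Cyp2e1 alone was found; Apod in control is highest where both were found.

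The same 2 classes were then drawn from other gated fibroblasts, which carry 1 to 4 UMIs of the pair and are not members. There were 257 Prss35-only and 243 Cyp2e1-only cells in the floxed-labelled, 189 and 178 in the Marfan and 137 and 188 in the control library. Of the 72 genes higher in Prss35-only members, 69 were higher in the Prss35-only non-members of all 3 libraries, and of the 91 lower genes 78 were lower there. Over all 5672 compared genes, 1691 (29.8%) were higher and 755 (13.3%) lower in the non-members of all 3 libraries. Among the 1587 genes higher by any amount in Prss35-only members of all 3 libraries, 55.5% were higher in those non-members, and among the 1096 lower ones 38.0% were lower. These shares hold genes of any ratio, while the 72 and 91 genes were past 2-fold, so they are not compared at a like limit. Both splits use the 2 genes of the rule in the same libraries, so the agreement is a description. Areg had log2 ratios of 1.43, 2.71 and 5.35 in floxed-labelled, Marfan and control non-members, and Igfbp3 had -3.18, -4.68 and -1.88.

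The genotypes were compared within members, where 1.5-fold was the limit for a call and a gene needed at least 20 CPM and a UMI in at least 10% of members in the higher library. Between Marfan and control members 6147 genes were compared, with 152 (2.47%) higher in Marfan and 202 (3.29%) lower. Between floxed-labelled and Marfan members 6029 were compared, with 159 (2.64%) higher in floxed-labelled and 79 (1.31%) lower. The same limits in other gated fibroblasts called 195 of 6244 genes (3.12%) higher and 220 (3.52%) lower for Marfan over control, and 162 of 6145 (2.64%) higher and 164 (2.67%) lower for floxed-labelled over Marfan. Both comparisons use the Marfan library, so values of each are given side by side and no overlap is read from them. Every value of the first set rests on the Marfan and control libraries alone, and every value of the second on the label of the floxed library. Klf4 itself was at 326 CPM in floxed-labelled, 144 CPM in Marfan and 166 CPM in control members, a log2 ratio of 1.18 (95% interval 1.04 to 1.31) for floxed-labelled over Marfan, and 379.7, 188 and 181 CPM in other gated fibroblasts of the same libraries. Macrophage markers summed to 89.1 CPM in floxed-labelled, 126.5 CPM in Marfan and 84.1 CPM in control members, with C1qa at 18.3, 31.0 and 12.6 CPM, and their part in the ratios between genotypes was not tested.

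Between Marfan and control members, genes of myofibroblast activation were higher in Marfan and genes of the interferon response lower. Of 23 myofibroblast genes 17 were compared, with 10 higher and 0 lower and a median log2 ratio of 0.77, against 0.02 over all genes compared. In other gated fibroblasts 18 were compared, with 2 higher and 0 lower and a median of 0.29. Col8a1, a short-chain collagen of vessel walls, was at 110.0 CPM in floxed-labelled, 59.2 CPM in Marfan and 19.8 CPM in control members, a log2 ratio of 1.58 (95% interval 1.21 to 1.97) for Marfan over control, and in other gated fibroblasts that ratio was 0.34. The actin-binding Tagln (1.04), Cthrc1 (0.99), Col12a1 (1.11), the homeobox factor Meox1 (0.95), Ccn2, which encodes connective tissue growth factor (0.86), and smooth muscle actin Acta2 (0.83) had the same direction. Acta2 was at 174 CPM in floxed-labelled, 239 CPM in Marfan and 134 CPM in control members and at 681, 468 and 479 CPM in other gated fibroblasts. The 8 smooth muscle markers summed to 827 CPM in Marfan members and 488 CPM in control members, and the share of Prss35-only members, in which Tagln, Cthrc1, Col12a1 and Meox1 were higher, was 25.4% in Marfan and 14% in control. The part of the smooth muscle markers was not tested. With the 3 classes of members weighted alike, 10 of 17 myofibroblast genes were higher, with a median of 0.67, and Col8a1 was at 1.36.

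Fn1, which encodes fibronectin, was at 37.2 CPM in floxed-labelled, 34.7 CPM in Marfan and 16.1 CPM in control members, a log2 ratio of 1.11 (95% interval 0.67 to 1.56) for Marfan over control. Of 28 matricellular genes 19 were compared, with 8 higher in Marfan members and 3 lower. Ccn5, a relative of Ccn2 that lacks one of its domains, was at 32.7 CPM in floxed-labelled, 38.6 CPM in Marfan and 11.9 CPM in control members. Timp1, an inhibitor of metalloproteases, was at 417 CPM in floxed-labelled, 487 CPM in Marfan and 236 CPM in control members, a log2 ratio of 1.05 for Marfan over control, against 3.70 in other gated fibroblasts, where Timp1 stood at 428, 3512 and 269 CPM. Fbn1 was at 181 CPM in floxed-labelled, 153 CPM in Marfan and 119 CPM in control members. Vcan had a log2 ratio of -0.09 (95% interval -0.14 to -0.04) for Marfan over control members and -0.29 in other gated fibroblasts, and 0 of 9 compared genes of versican, hyaluronan and their partners passed 1.5-fold in members.

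The highest gene of that comparison was Spp1, which encodes osteopontin, at 5.87 CPM in floxed-labelled, 34.2 CPM in Marfan and 2.72 CPM in control members, against 88.4, 2987 and 34.8 CPM in other gated fibroblasts and 118, 511 and 36.3 CPM in macrophages. A Spp1 UMI was found in 35.8% of Marfan members, in 36.1% of Marfan Hsd11b1 fibroblasts, 28.8% of Marfan Pi16 fibroblasts and 34.1% of other gated Marfan fibroblasts, at median depths of 12692, 10776, 11767 and 9041.5 UMIs. After thinning to 5000 UMIs the shares were 17.3%, 22.6%, 14.6% and 23.2%, so at matched depth the share in members lay below those of Hsd11b1 and other gated fibroblasts and above that of Pi16 fibroblasts. Lcn2, a neutrophil-associated lipocalin, was at 20.3 CPM in floxed-labelled, 95.5 CPM in Marfan and 26.2 CPM in control members and at 24.8, 117 and 26.2 CPM in other gated fibroblasts. Neutrophil markers summed to 1.12 CPM in floxed-labelled, 12.8 CPM in Marfan and 2.97 CPM in control members, and their part in the Lcn2 values was not tested. The serpin relatives Serpinb1a (2.37) and Serpini1 (1.93), the deiodinase Dio2 (1.79), the methyltransferase Nnmt (1.58), the stress cytokine Gdf15 (1.55) and the decoy receptor Tnfrsf11b (1.35) were the other highest genes for Marfan over control.

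Among the lowest genes of Marfan members was Ptgds, a prostaglandin D2 synthase, at 16.2 CPM in floxed-labelled, 26.6 CPM in Marfan and 183 CPM in control members, against 15.5, 30.7 and 82.0 CPM in other gated fibroblasts. Nrgn (-2.87), Icosl, a costimulatory ligand (-2.19), and Lmo2 (-2.04) were lower as well. Apod was at 55.5 CPM in floxed-labelled, 18.5 CPM in Marfan and 69.7 CPM in control members, and 6 of 15 compared lipid handling genes were lower and 0 higher for Marfan over control members, including Scd1 (-1.08) and Abca1 (-0.85). In other gated fibroblasts 3 of 17 were higher and 2 lower. Of 15 compared lipid handling genes 6, Apod included, were also lower in Prss35-only than in Cyp2e1-only members, and Prss35-only members were 25.4% of Marfan and 14% of control members. With the 3 classes weighted alike, 5 of 15 were lower and 1 higher for Marfan over control, with a median of -0.26, and Apod was at -1.53. Clock genes were lower in both populations: 5 of 9 in members, with a median of -0.73, and 5 of 9 in other gated fibroblasts, with a median of -0.93. Dbp, an output factor of the clock, was at 34.3 CPM in floxed-labelled, 17.2 CPM in Marfan and 36.6 CPM in control members, with -1.46 for Marfan over control in other gated fibroblasts.

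Between floxed-labelled and Marfan members, genes of the interferon response were higher in floxed-labelled members. Interferon signals act through the STAT and IRF factors on genes such as Isg15, a ubiquitin-like modifier, the Ifit family, which binds foreign RNA, and Rsad2, which encodes viperin. Of 28 genes of the interferon response and class I presentation 27 were compared, with 21 higher in floxed-labelled members and 0 lower and a median log2 ratio of 0.83, against -0.03 over all genes compared. In other gated fibroblasts 1 of 25 was higher and 0 lower, with a median of 0.12. Between Marfan and control members 15 of 26 were lower and 0 higher, with a median of -0.66, and in other gated fibroblasts 3 of 25 were lower, with a median of -0.23. Without the 5% of other gated fibroblasts with the highest interferon sums, chosen after seeing the data, 2 of 25 were lower and 3 higher for Marfan over control, with a median of 0.24. Whether the populations differ was not tested.

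Isg15 was at 832 CPM in floxed-labelled, 264 CPM in Marfan and 702 CPM in control members, and at 413, 456 and 521 CPM in other gated fibroblasts. Its log2 ratio for floxed-labelled over Marfan members was 1.66 (95% interval 1.56 to 1.75), and -0.14 in other gated fibroblasts. Rsad2 was at 148 CPM in floxed-labelled, 13.0 CPM in Marfan and 129.8 CPM in control members, and at 54.9, 55.7 and 114 CPM in other gated fibroblasts. Marfan members thus held the lowest level of both genes among the 3 libraries. Ifit1 was at 311 CPM in floxed-labelled, 67.8 CPM in Marfan and 205 CPM in control members and Ifit3 at 514 CPM in floxed-labelled, 149.7 CPM in Marfan and 440.5 CPM in control members. The restriction factor Mx1 (2.22), the nucleic acid sensor Zbp1 (1.98), the ubiquitin ligase Rnf19b (1.78), the immunity-related GTPase Irgm1 (1.73), Ifi44 (1.72) and Slfn9 (1.69) were the other highest genes. Tap1, part of the transporter that supplies peptides for class I, had a log2 ratio of 1.04 for floxed-labelled over Marfan. Cxcl10, a chemokine that attracts T cells, was at 225 CPM in floxed-labelled, 80.1 CPM in Marfan and 695 CPM in control members, and at 99.0, 584 and 670.0 CPM in other gated fibroblasts. Without the 5% of cells with the highest interferon sums, Cxcl10 was at 57.9, 28.6 and 71.6 CPM in members and at 34.8, 27.5 and 57.6 CPM in other gated fibroblasts, so the cells left out held most of it. The class II gene Cd74 had a log2 ratio of 0.54 for floxed-labelled over Marfan members.

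**Figure D5:**
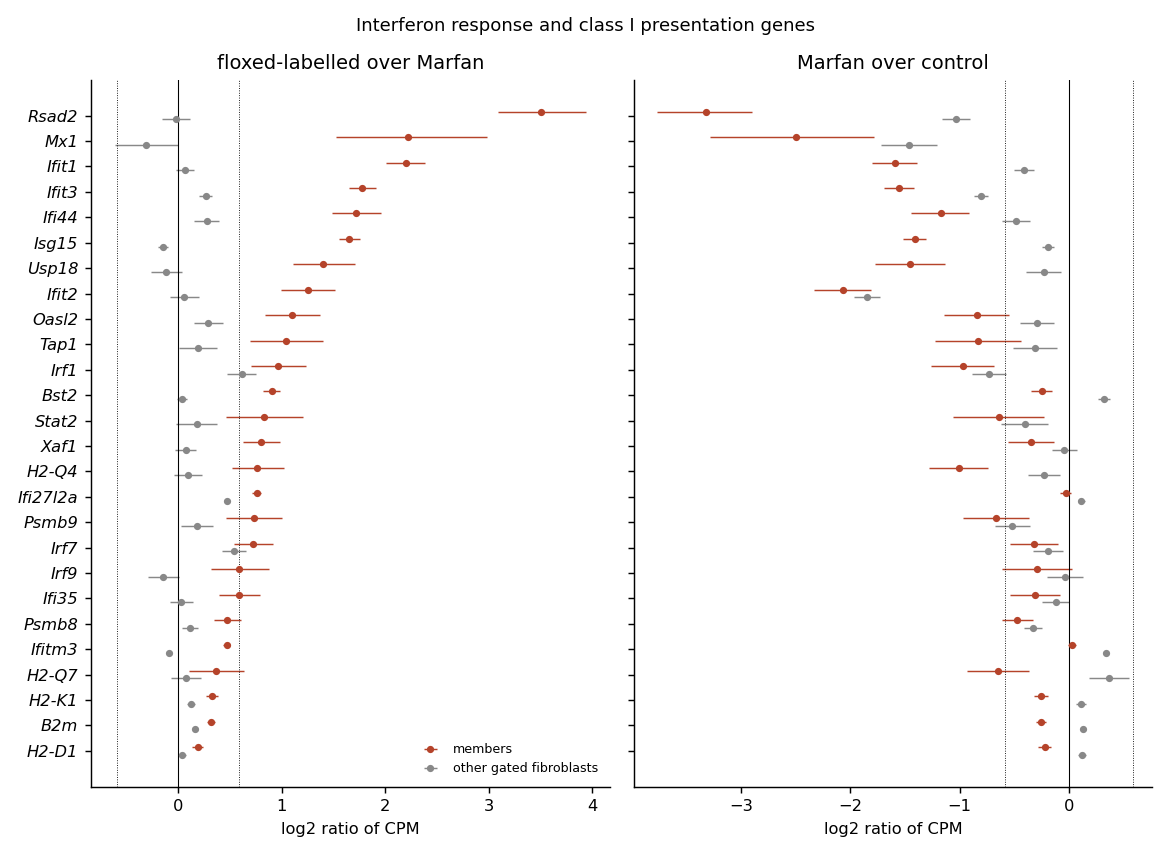
Log2 ratios of CPM for 26 genes of the interferon response and class I presentation, floxed-labelled over Marfan and Marfan over control, in members and in other gated fibroblasts, with dotted lines at 1.5-fold. Bars are exact 95% intervals for counting error. In members, 20 of them lie above the upper line for floxed-labelled over Marfan and 15 below the lower line for Marfan over control, Mx1 included, which did not pass the filter on low values in that comparison.

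The interferon transcripts were uneven between cells. The sum of 10 interferon genes was 2359 CPM in floxed-labelled, 731 CPM in Marfan and 2016 CPM in control members, against 1211, 1154 and 1691 CPM in other gated fibroblasts. The median member carried 6.5, 3 and 3 UMIs of these genes, and 43.7%, 20.8% and 27.4% of members carried at least 10. The 5% of members with the highest sums held 38.7%, 51.4% and 62.7% of them. Without these cells, an alternative chosen after seeing the data, the sums were 1539, 378 and 803 CPM in members, against 600.3, 453 and 430 CPM in other gated fibroblasts without theirs. In members, the lower calls for Marfan over control were 12 of 26 with a median of -0.45, and the higher calls for floxed-labelled over Marfan were 20 of 26 with a median of 0.90. In members the floxed-labelled sum was thus the highest and the Marfan sum the lowest with and without these cells, while in other gated fibroblasts control was the highest with them and the lowest without them. Rsad2 stood at 56.1, 3.89 and 24.3 CPM in the remaining floxed-labelled, Marfan and control members.

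Promoters of interferon-responsive genes often carry an element built from a repeat of GAAA. A pair of GAAA blocks with any 2 bases between them was searched, on both strands (TTTC on the other) and with overlapping matches counted, in the 250 bases before the start of each gene in RefSeq promoters of build GRCm38.p6. Such pairs occur in 936 of 27025 genes (3.46%). Among the 10 named genes higher in floxed-labelled members, 8 had a promoter entry and 6 of these (75%) held the letters, against 1 of 8 (12.5%) of those lower. Among the named genes of Marfan over control, 1 of 6 higher and 3 of 9 lower genes held them. A match describes the letters only. The last 220 bases before the start are shown for 5 interferon genes chosen by hand, all with a match. Cxcl10 is not among the 10 named genes. The bases after the start were found in an annotated transcript for each of the 5 except Ifit3. Sequences are on the strand of the gene, with matches in capitals: Rsad2 at chr12:26456453-26456672 (minus strand), Isg15 at chr4:156200819-156201038 (minus), Ifit1 at chr19:34640669-34640888 (plus), Ifit3 at chr19:34583309-34583528 (plus) and Cxcl10 at chr5:92348890-92349109 (minus).
Rsad2: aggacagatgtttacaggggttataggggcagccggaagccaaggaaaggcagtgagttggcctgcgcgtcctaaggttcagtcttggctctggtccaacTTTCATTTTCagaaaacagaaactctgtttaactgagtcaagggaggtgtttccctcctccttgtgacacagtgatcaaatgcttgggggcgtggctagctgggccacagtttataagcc
Isg15: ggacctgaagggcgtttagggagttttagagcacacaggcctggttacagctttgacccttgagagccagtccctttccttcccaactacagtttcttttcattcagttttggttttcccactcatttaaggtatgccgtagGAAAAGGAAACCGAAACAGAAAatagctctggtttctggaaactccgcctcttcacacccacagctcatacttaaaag
Ifit1: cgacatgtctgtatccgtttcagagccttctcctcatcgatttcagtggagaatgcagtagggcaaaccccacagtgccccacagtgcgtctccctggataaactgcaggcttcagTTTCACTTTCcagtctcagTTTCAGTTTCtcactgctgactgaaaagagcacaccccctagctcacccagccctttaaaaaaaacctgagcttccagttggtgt
Ifit3: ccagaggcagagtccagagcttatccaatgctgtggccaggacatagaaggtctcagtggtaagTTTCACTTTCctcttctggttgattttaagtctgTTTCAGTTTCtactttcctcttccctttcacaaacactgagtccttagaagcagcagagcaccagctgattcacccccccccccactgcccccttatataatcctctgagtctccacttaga
Cxcl10: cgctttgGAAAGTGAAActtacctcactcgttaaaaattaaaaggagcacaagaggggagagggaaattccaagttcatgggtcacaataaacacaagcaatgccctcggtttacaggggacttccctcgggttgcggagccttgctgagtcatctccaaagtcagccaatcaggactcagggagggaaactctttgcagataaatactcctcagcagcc
Isg15 held 3 matches that overlap, Ifit1 and Ifit3 held 2 each, and Rsad2 and Cxcl10 held 1 each.

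Outside the interferon response, 7 of 20 immediate early and heat shock genes were higher in floxed-labelled than in Marfan members and 0 lower, among them Nr4a1 (0.96), Hspa1b (0.87) and Junb (0.65). Such genes respond to tissue dissociation, and 8 of 20 were higher in other gated fibroblasts. Of the clock genes 4 of 8 were higher in members and 3 of 8 in other gated fibroblasts. The part of handling and of the hour of collection in these values was not tested. Areg was at 113 CPM in floxed-labelled, 39.9 CPM in Marfan and 29.7 CPM in control members, with 1.45 for floxed-labelled over Marfan in other gated fibroblasts against 1.5 in members. Lower in floxed-labelled than in Marfan members were Spp1 (-2.54) and Lcn2 (-2.24), described above, the glypican Gpc3 (-1.23), the cytokine receptor Cntfr (-1.14), Angptl7 (-1.07), Tmem119 (-1.03), Mboat2 (-0.95), Ccnb1ip1 (-1.15) and the homeobox factor Prrx2 (-0.95). Col8a1, higher in Marfan than in control members, was higher again in floxed-labelled than in Marfan members at 0.89.

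The 2 genes of the rule are given last. Prss35 had a log2 ratio of 0.11 for floxed-labelled over Marfan members and 0.08 for Marfan over control, and Cyp2e1 0.13 and -0.55. Since the threshold fixes a minimum of their sum, these ratios are a description of the chosen cells.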

How the data were processed

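The data are droplet single-cell 3' RNA libraries of mouse aortic root, 1 per genotype and sorted fraction, 6 in all. The deposited matrices hold raw UMI counts per gene and barcode, made with Cell Ranger 6.1.2 per the file headers. The submitters' processing notes name mm10, and which annotation was used is not given in the sources used here. Samples were grouped by the genotype and fraction in their labels.

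Members, gates and gene lists were chosen with earlier results of these data known. Counts were summed over the cells of a population in each library and divided by their total to give CPM. Log2 ratios have exact conditional binomial intervals, shares exact Clopper-Pearson intervals and sums exact Poisson intervals, at the 95% level, all for counting error only. With 1 library per group no p-value was computed. The 14 gate genes stayed out of the counts. Against other populations, the 20 highest and 10 lowest genes (other gated fibroblasts) or the 8 highest and 5 lowest (Pi16 and Hsd11b1 fibroblasts) by median log2 ratio among called genes are named; between genotypes, the 10 highest and 10 lowest called genes whose interval leaves out 0; and, from each of 45 lists, up to 4 genes. Mitochondrial, ribosomal, haemoglobin, immunoglobulin and unnamed genes were left out of these, and some genes that the rule names are not reported here. Other genes named, among them those of the Prss35-only and Cyp2e1-only classes and of the Chad cells, were chosen after their values were seen.

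Macrophages were cells with at least 20 UMIs of Tyrobp plus Fcer1g and fewer than 10 of Dcn. No doublet caller was used beyond the gates; removing the barcodes with the highest Scrublet scores (scanpy 1.11.5), 0.8% per 1000 barcodes, was an alternative. Other alternatives changed the threshold, the limits, the gates, the scaling and the filter on low values. The interval code was tested on simulated data. Python 3.11.15, numpy 2.4.6, scipy 1.17.1 and pandas 2.3.3 were used.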

Additional observations from a re-analysis of the deposited data

Results flagged for a closer look

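For the 6 genes below the ratio between genotypes was past 1.5-fold in opposite directions in members and in other gated fibroblasts, with both intervals leaving out 0. Genes with a smaller opposite ratio in either population are not among them, such as Isg15 with 1.66 and -0.14 for floxed-labelled over Marfan. The difference between the populations was not tested. For Marfan over control, Apod had a log2 ratio of -1.91 in members and 0.80 in other gated fibroblasts. For floxed-labelled over Marfan, Apod had 1.58 in members and -1.02 in other gated fibroblasts, Cxcl10 had 1.49 and -2.56, Cxcl2 0.66 and -2.43, Cxcl1 0.61 and -2.81, Ereg 0.65 and -1.84, and Egln3 -0.61 and 0.59. Without the 5% of cells with the highest interferon sums, Cxcl10 had 1.02 in members and 0.34 in other gated fibroblasts, so its opposite signs rest on those cells. Without them Cxcl1 had 0.62 and -2.65, Cxcl2 0.74 and -2.28, Ereg 0.46 and -1.60, Egln3 -0.65 and 0.52 and Apod 1.56 and -1.39 for floxed-labelled over Marfan, with signs that stay opposite. With the Pi16 and Hsd11b1 gates dropped, however, the ratio in members was -0.32 for Cxcl1 and -1.24 for Cxcl2. The positive sign of these genes in members thus rests on those gates. In levels, Cxcl1 was at 118 CPM in floxed-labelled, 77.2 CPM in Marfan and 60.1 CPM in control members, against 152, 1067 and 83.1 CPM in other gated fibroblasts of those libraries, and Ereg at 31.6 CPM in floxed-labelled, 20.1 CPM in Marfan and 9.40 CPM in control members, against 26.3, 94.3 and 10.9 CPM. The high level thus lay in the other gated fibroblasts of the Marfan library for both genes.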

How the results depend on the processing

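The share of members among gated fibroblasts moved with the rule: 35.7% in floxed-labelled, 22.4% in Marfan and 30.2% in control with a threshold of 3 UMIs, and for these libraries 15.1%, 7.56% and 14.3% with 8, 27.6%, 17.2% and 24.8% with at least 4000 UMIs per cell, 16.4%, 9.79% and 12.4% without the Pi16 and Hsd11b1 gates, and 8.08%, 3.93% and 6.63% of all barcodes within the limits. Thinning gave 21.0% in floxed-labelled. Marfan had the lowest share in each of these. Dropping the gates gave 113 genes higher and 218 lower against other gated fibroblasts, and weighting cells alike gave 75 higher against Pi16 fibroblasts. A filter of 5 CPM gave 44 higher and 233 lower against other gated, 94 and 270 against Pi16 and 450 and 601 against Hsd11b1 fibroblasts, 503 and 573 for Marfan over control and 352 and 435 for floxed-labelled over Marfan. A filter of 50 CPM gave 14 and 46, 26 and 83, 148 and 248, 66 and 86, and 90 and 23 for the same comparisons. The genes lower for floxed-labelled over Marfan numbered 134 with a threshold of 8 UMIs and 123 with mitochondrial and ribosomal genes out of the total. Between genotypes, Aspn for Marfan over control was 0.0143 with a threshold of 8 UMIs, and without the gates Cxcl1 was -0.32 and Cxcl2 -1.24 for floxed-labelled over Marfan; the cause was not tested. Of 1485 values of named genes for Marfan over control 146 moved and 1 reversed, and of 1518 for floxed-labelled over Marfan 130 moved and 2 reversed. Leaving out mitochondrial and ribosomal genes took the median ratio against Hsd11b1 fibroblasts to 0.11. Depth limits genes under 20 CPM. No paired analysis was possible because each genotype has 1 library.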
